A study of Mus musculus with 32 samples.

Results

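The Hippo pathway genes described here are the coactivators Yap1 and Wwtr1, their partner transcription factors Tead1 to Tead4, and the target genes Ctgf, Cyr61, Ankrd1 and Amotl2. Members were found by gene symbol, by a rule that uses no measured value, although the list was drawn up with earlier results of these data known. Of these 10 genes, 9 had a row among the 39676 genes of the count table. Expression of Ankrd1 is not analysed here.

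The samples were 32 whole tumors, each from 1 untreated female mouse of 8 to 10 weeks, harvested at day 10 after inoculation. AB1 cells, a mouse mesothelioma line, were given to BALB/c mice at 500000 cells, and AE17 cells, a second such line, to C57BL/6 mice at 1000000 cells. Each line was placed either in the pleural cavity (intrapleural, IPL) or under the skin (subcutaneous, SC), with 8 tumors in each of the 4 groups. The comparison asked how the site of growth changes the tumor transcriptome. Cell line, mouse strain and cell number change together between the AB1 and AE17 models, so their parts in any difference between models cannot be told apart. Sequencing lane adds to this, since at neither site did tumors of both models share a lane.

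The Hippo pathway is a kinase cascade in which MST kinases activate LATS kinases, which phosphorylate YAP and TAZ, the products of Yap1 and Wwtr1, and hold them in the cytoplasm. YAP and TAZ that escape phosphorylation enter the nucleus and act through TEAD proteins at genes of growth, matrix and cytoskeleton. Loss of the upstream regulator NF2 is common in human mesothelioma, and much of the control falls on the proteins rather than on their transcripts, which alone were measured here.

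Between 15432258 and 20649645 reads were counted per tumor. Levels are CPM, each gene's share of the counts scaled to a fixed total after TMM adjustment of library sizes, and no member with a row fell below 83 counts in any tumor. The sequencing lane named in each library's label was not balanced: all 8 AB1 IPL tumors ran on lane 3, with 2 AB1 SC tumors on lane 3 and 6 on lane 2, whereas AE17 IPL tumors ran on lanes 1 and 2 and all AE17 SC tumors on lane 1. Markers of neighboring tissue differed too. The summed level of 12 skeletal muscle markers lay between 123 and 5427 CPM in AB1 IPL tumors, with a median of 2598, and between 55.1 and 554 CPM in AB1 SC tumors, with a median of 339, and 11 of the 12 were called higher in AB1 IPL. The 5 fibroblast markers with a row summed to a median of 6428 CPM in AB1 IPL and 3656 CPM in AB1 SC tumors, with 4 of 5 called higher. The 5 smooth muscle and pericyte markers summed to medians of 672 and 191 CPM, with 2 called higher of the 4 tested, and most of that gap lay in Des, a gene that striated muscle also expresses (medians 495 and 43.7 CPM), while Rgs5 had medians of 40.2 and 46.8 CPM. Cardiac muscle markers summed to medians of 44.6 CPM in AB1 IPL and 5.495 CPM in AB1 SC tumors, with 2 called higher and 1 lower of 3 tested, and endothelial markers to 169 and 137 CPM, with 3 of 6 called higher. Adipocyte markers summed to a median of 10.8 CPM in AB1 IPL, with a highest sum of 104.9 CPM in replicate 2, and 3.72 CPM in AB1 SC tumors, with 1 called higher of 3 tested, and 1 of 2 keratinocyte markers tested was called higher. Leukocyte markers went the other way, from a median sum of 804 CPM in AB1 SC to 567 CPM in AB1 IPL tumors, with 2 of 5 called lower and 1 higher, and the pan-leukocyte gene Ptprc had medians of 262 and 128.5 CPM. In AE17 tumors the skeletal muscle sum was 57.5 to 942 CPM in IPL (median 593) and 46.2 to 1522 CPM in SC (median 665), with 0 of 12 markers called, while 2 of 3 cardiac muscle markers tested, 1 of 6 endothelial and 1 of 5 leukocyte markers were called higher in IPL tumors. Lung epithelium markers stayed at or below 4.41 CPM in sum in every tumor. The 5 mesothelial markers with a row had median sums of 1.40 and 1.94 CPM in AB1 IPL and SC tumors and 10.6 and 3.01 CPM in AE17 IPL and SC tumors, with a highest sum of 77.5 CPM in AB1 IPL replicate 2 and 21.45 CPM in AE17 IPL replicate 6, and Upk3b and Lrrn4 did not exceed 3 counts in any SC tumor. The AB1 IPL tumor of replicate 4 had the highest skeletal muscle sum (5427 CPM), smooth muscle and pericyte sum (1086 CPM, which holds Des) and endothelial sum (218 CPM) of its group. In whole tumors, fewer cells of a type and less RNA per cell cannot be told apart.

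On GRCm38 with GENCODE M21 annotation, all 9 members with a row are protein-coding genes. Yap1 lies at chr9:7931999-8004596 (minus strand) and Wwtr1 at chr3:57455649-57575910 (minus). The TEAD genes lie at chr7:112679318-112906807 (Tead1, plus), chr7:45215753-45233644 (Tead2, plus), chr17:28331671-28350817 (Tead3, minus) and chr6:128224288-128300823 (Tead4, minus). The targets lie at chr10:24595442-24598683 (Ctgf, plus), chr3:145646976-145649981 (Cyr61, minus) and chr9:102716672-102733418 (Amotl2, plus). Reads were summed over all exons of a gene, so that isoforms are not separated.

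**Figure D1:**
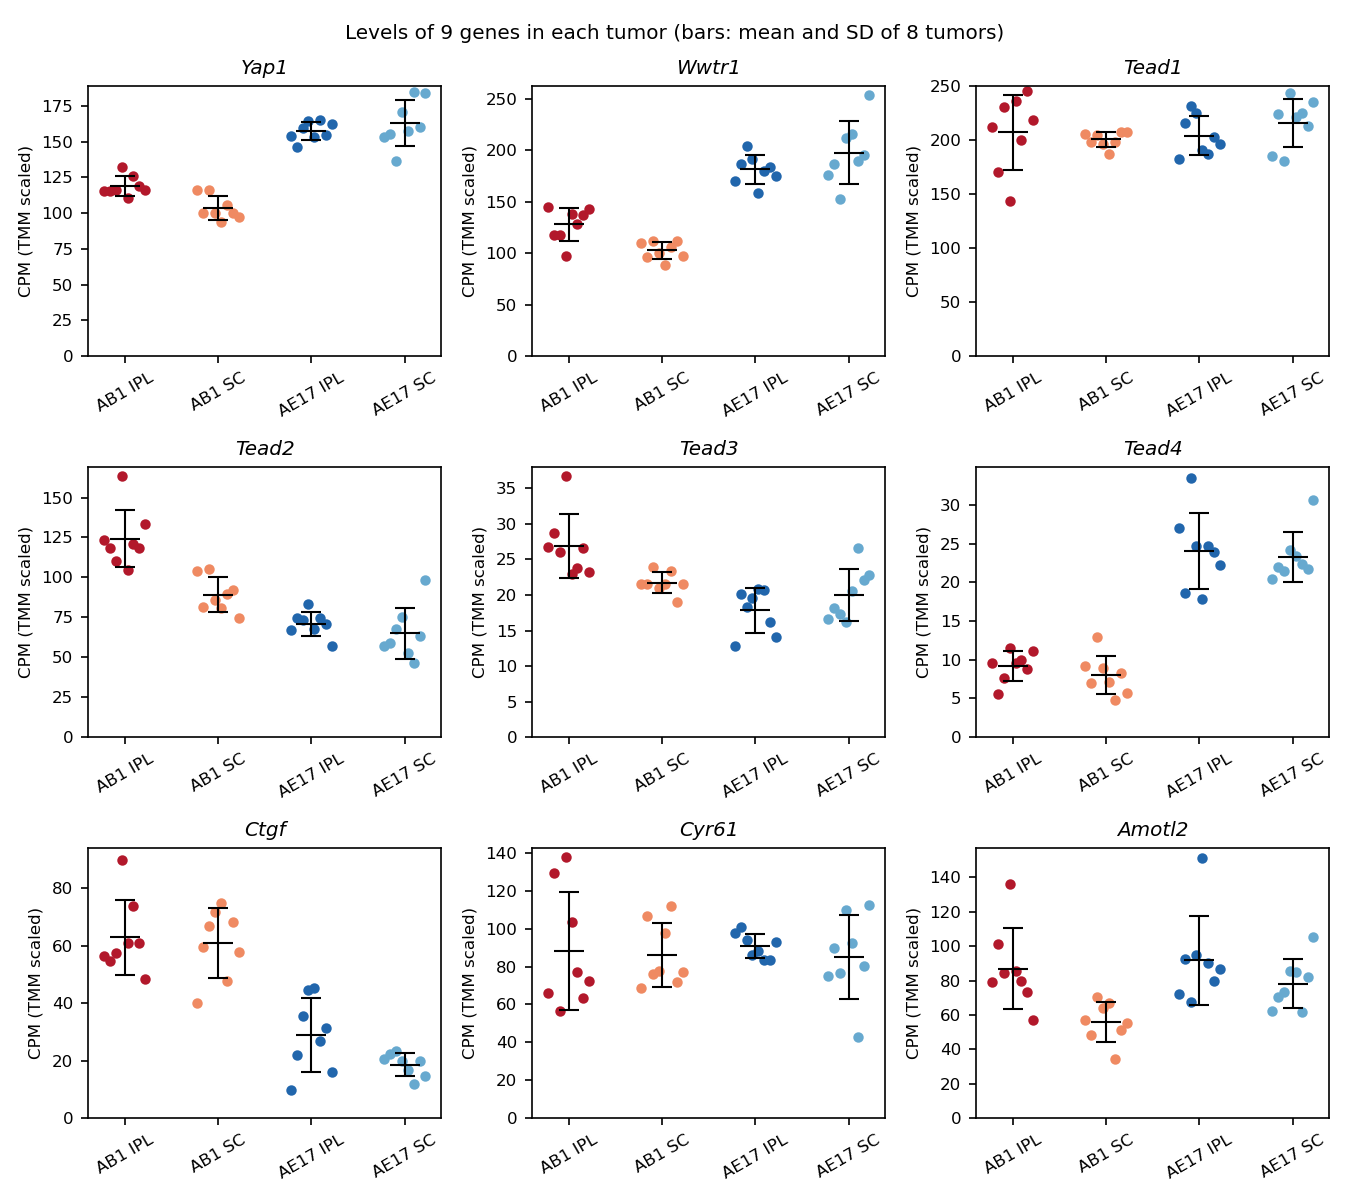
Level of each of the 9 members in CPM (TMM scaled, axis from 0) in the 32 tumors by group; each point is 1 tumor and black bars give the mean and SD of 8 tumors. Yap1, Wwtr1 and Tead4 lie higher in every AE17 tumor than in any AB1 tumor of the same site, Ctgf lies lower, and the AB1 IPL and SC points overlap for all 9 members.

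Yap1 and Wwtr1, the coactivators, were both higher in AB1 IPL than in AB1 SC tumors by small folds, and neither call held with lane or tissue marker covariates. In AB1, Yap1 lay between 110.6 and 132 CPM in IPL tumors, with a median of 116, and between 94.0 and 116 CPM in SC tumors, with a median of 100.3. Of the 8 IPL tumors, 5 lay above every SC tumor, and the other 3 lay within the SC range. The difference was 1.12-fold (95% interval 1.04 to 1.22), a log2 fold change of 0.17 ± 0.05 (SE, n = 8 against 8), with an adjusted p of 0.0342 by edgeR's quasi-likelihood test with Benjamini-Hochberg adjustment. Wwtr1 lay between 97.2 and 144 CPM in IPL tumors, with a median of 133, and between 88.7 and 112 CPM in SC tumors, with a median of 103. All AB1 IPL tumors but replicate 4, at 97.2 CPM, lay above every AB1 SC tumor. The Wwtr1 difference was 1.22-fold (95% interval 1.09 to 1.38), with an adjusted p of 0.0147.

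Neither coactivator was called between sites in AE17 tumors. Yap1 ran from 146.5 to 165 CPM in AE17 IPL (median 157) and from 137 to 184 CPM in AE17 SC tumors (median 159), a ratio of 0.973 (95% interval 0.898 to 1.05, adjusted p = 0.694). Wwtr1 ran from 159 to 204 CPM in AE17 IPL (median 182) and from 152.5 to 254 CPM in AE17 SC tumors (median 193), a ratio of 0.923 (95% interval 0.819 to 1.04, adjusted p = 0.391). For both genes every IPL value lay inside the SC range. The site effect itself differed between the models: in AE17 it was lower than in AB1 by 0.23 ± 0.07 on the log2 scale for Yap1 (adjusted p = 0.0275) and by 0.43 ± 0.12 for Wwtr1 (adjusted p = 0.00972). The Yap1 call was lost without AE17 SC replicate 6 (log2 difference -0.20, adjusted p = 0.0517). Without a filter on low counts Yap1 was lost too (adjusted p = 0.0637). With lane as a covariate neither difference passed, at a log2 difference of -0.15 for Yap1 (adjusted p = 0.547) and -0.45 for Wwtr1 (adjusted p = 0.194). With tissue marker covariates Wwtr1 passed (log2 difference -0.43, adjusted p = 0.0354) and Yap1 did not (-0.18, adjusted p = 0.193).

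Between the models, both coactivators were higher in AE17. Yap1 was 1.35-fold higher in IPL tumors (95% interval 1.26 to 1.46, adjusted p = 1.02e-08) and 1.58-fold higher in SC tumors (95% interval 1.47 to 1.70, adjusted p = 1.38e-12). Wwtr1 was 1.45-fold higher in IPL tumors (adjusted p = 1.38e-06) and 1.94-fold higher in SC tumors (95% interval 1.73 to 2.18, adjusted p = 1.37e-11). At each site all 8 AE17 tumors lay above all 8 AB1 tumors for both genes. These 4 calls held under all 41 alternatives tried for each. However, no lane held both models at either site, so the lane covariate drew in part on tumors of the other site. The models differ widely, however: 63.4% of 15681 genes tested were called between models in IPL tumors and 58.3% in SC tumors, and 28.1% and 30.8% did not overlap.

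Per kilobase of summed exon length, Wwtr1 was the more abundant coactivator transcript. In AB1 IPL tumors Yap1 stood at 12.9 and Wwtr1 at 26.8 CPM per kb, and in AE17 SC tumors at 17.6 and 41.4 CPM per kb. The Yap1 to Wwtr1 ratio averaged 0.482 in IPL and 0.521 in SC tumors of AB1 and 0.449 and 0.427 in those of AE17, below 1 in 8 of 8 tumors of each group (two-sided exact sign-flip test, p = 0.00781 in each, the smallest that 8 tumors allow, 0.00875 after Benjamini-Hochberg adjustment over 28 ratios). With the longest transcript as length the gap was smaller, with a mean log2 ratio between -0.44 and -0.16, and 1 AB1 IPL tumor lay on the other side.

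Of the TEAD genes, which encode the DNA-binding partners of YAP and TAZ, Tead2 and Tead3 were higher in AB1 IPL than in AB1 SC tumors, and Tead1 and Tead4 were not called. The Tead2 and Tead3 calls were also lost with lane or tissue marker covariates. Tead2 lay between 104.8 and 163 CPM in IPL tumors, with a median of 120, and between 74.7 and 105.4 CPM in SC tumors, with a median of 87.5. Of the 8 IPL tumors, 7 lay above every SC tumor. Tead2 was 1.36-fold higher (95% interval 1.2 to 1.55, log2 fold change 0.45 ± 0.09, adjusted p = 0.00143), the smallest adjusted p among the members in this comparison. Tead3 lay between 22.99 and 36.8 CPM in IPL tumors, with a median of 26.3, and between 19.1 and 23.9 CPM in SC tumors, with a median of 21.5, and 5 of 8 IPL tumors exceeded every SC tumor. The Tead3 difference was 1.21-fold (95% interval 1.07 to 1.38, adjusted p = 0.0308).

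Tead1 and Tead4 gave no difference between AB1 sites beyond the spread between tumors. Tead1 ran from 143.5 to 245 CPM in AB1 IPL (median 216) and from 187 to 208 CPM in AB1 SC tumors (median 202). The IPL values spread on both sides of the SC values, with 5 above and 2 below all of them (ratio 1.01, 95% interval 0.883 to 1.16, adjusted p = 0.919). Tead4, which had the lowest CPM of the members in AB1, ran from 5.55 to 11.6 CPM in AB1 IPL (median 9.62) and from 4.84 to 12.9 CPM in AB1 SC tumors (median 7.70), so that the IPL values lay inside the SC range (ratio 1.13, 95% interval 0.871 to 1.47, adjusted p = 0.5).

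In AE17 tumors no TEAD gene was called between sites. Tead1 lay between 183 and 232 CPM in IPL and between 181 and 243.5 CPM in SC tumors, and Tead2 between 57.1 and 83.04 CPM in IPL and between 46.5 and 98.4 CPM in SC tumors. Tead3 lay between 12.8 and 20.9 CPM in IPL (median 18.98) and between 16.2 and 26.6 CPM in SC tumors (median 19.4), and Tead4 between 17.9 and 33.5 CPM in IPL (median 24.3) and between 20.4 and 30.6 CPM in SC tumors (median 22.2). The 2 sites overlapped for each of the 4 genes, and the ratios of IPL to SC were 0.950, 1.10, 0.896 and 1.04 for Tead1 to Tead4, with adjusted p of 0.539, 0.516, 0.449 and 0.797. The site effect on Tead3 was lower in AE17 than in AB1 by 0.45 ± 0.15 on the log2 scale (adjusted p = 0.0304), whereas that on Tead2 was not shown to differ (log2 difference -0.33 ± 0.15, adjusted p = 0.128). The Tead3 call was lost without AB1 IPL replicate 4, AE17 IPL replicate 8 or AE17 SC replicate 6 (highest adjusted p 0.0596), with lane as a covariate (log2 difference -0.55, adjusted p = 0.224) and with tissue marker covariates (log2 difference -0.18, adjusted p = 0.485).

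The mix of TEAD transcripts differed between the models. Tead4 was 2.67-fold higher in AE17 than in AB1 IPL tumors (95% interval 2.14 to 3.32, adjusted p = 1.98e-09) and 2.94-fold higher in SC tumors (adjusted p = 3.69e-10), with all 8 AE17 tumors above all 8 AB1 tumors at each site. Tead2 moved the other way, at 0.585 of its AB1 level in AE17 IPL tumors (95% interval 0.502 to 0.682, adjusted p = 2.65e-07), with the groups not overlapping, and 0.736 in SC tumors (adjusted p = 0.000795), where 6 of 8 AE17 tumors lay below all AB1 tumors and the call was lost with lane as a covariate (log2 fold change -0.32, adjusted p = 0.237). Tead3 was lower in AE17 IPL tumors (ratio 0.679, 95% interval 0.584 to 0.790, adjusted p = 3.44e-05, groups not overlapping) but was not called in SC tumors (ratio 0.931, 95% interval 0.801 to 1.08, adjusted p = 0.418). The IPL call was lost with lane as a covariate (log2 fold change -0.55, adjusted p = 0.0557), and the SC difference passed with tissue marker covariates (log2 fold change -0.25, adjusted p = 0.0239). Tead1 was called at neither site, with ratios of 1.01 in IPL (95% interval 0.895 to 1.13, adjusted p = 0.932) and 1.09 in SC tumors (95% interval 0.966 to 1.22, adjusted p = 0.223). With limma voom and sample quality weights, the SC difference was called higher (log2 0.14, adjusted p = 0.0139) and the interaction of model and site was called lower for Tead1 (log2 -0.22, adjusted p = 0.0298), which edgeR did not call.

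Per kilobase, the order of the TEAD genes was not the same in the models. In AB1 tumors Tead2 came first, at 25.9 ± 3.75 CPM per kb in IPL and 18.6 ± 2.29 in SC tumors (SD, n = 8), ahead of Tead1 at 15.3 ± 2.56 and 14.8 ± 0.526. Tead2 exceeded Tead1 in 8 of 8 tumors of both AB1 groups (exact sign-flip test, p = 0.00781 in each, adjusted p = 0.00875). In AE17 tumors the first 2 places were not distinguished: Tead1 and Tead2 stood at 15.1 ± 1.35 and 14.8 ± 1.56 CPM per kb in IPL tumors (exact sign-flip test, adjusted p = 0.688) and at 15.9 ± 1.64 and 13.6 ± 3.37 in SC tumors (exact sign-flip test, adjusted p = 0.0729). Tead3 exceeded Tead4 in 8 of 8 AB1 IPL and 7 of 8 AB1 SC tumors, and Tead4 exceeded Tead3 in 8 of 8 tumors of both AE17 groups. With the longest transcript as length, 1 tumor of each AE17 group lay on the other side, and the mean log2 ratio of Tead3 to Tead4 moved from -1.33 to -0.59 in AE17 IPL and from -1.13 to -0.39 in AE17 SC tumors (exact sign-flip test, adjusted p = 0.0263 and 0.0182). As a share of the summed TEAD level per kb, Tead4 made up 5.34% and 5.65% in AB1 IPL and SC tumors and 17.01% and 16.6% in AE17 IPL and SC tumors, and Tead2 made up 54.1%, 47.8%, 37.8% and 34.5% in the same order.

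**Figure D2:**
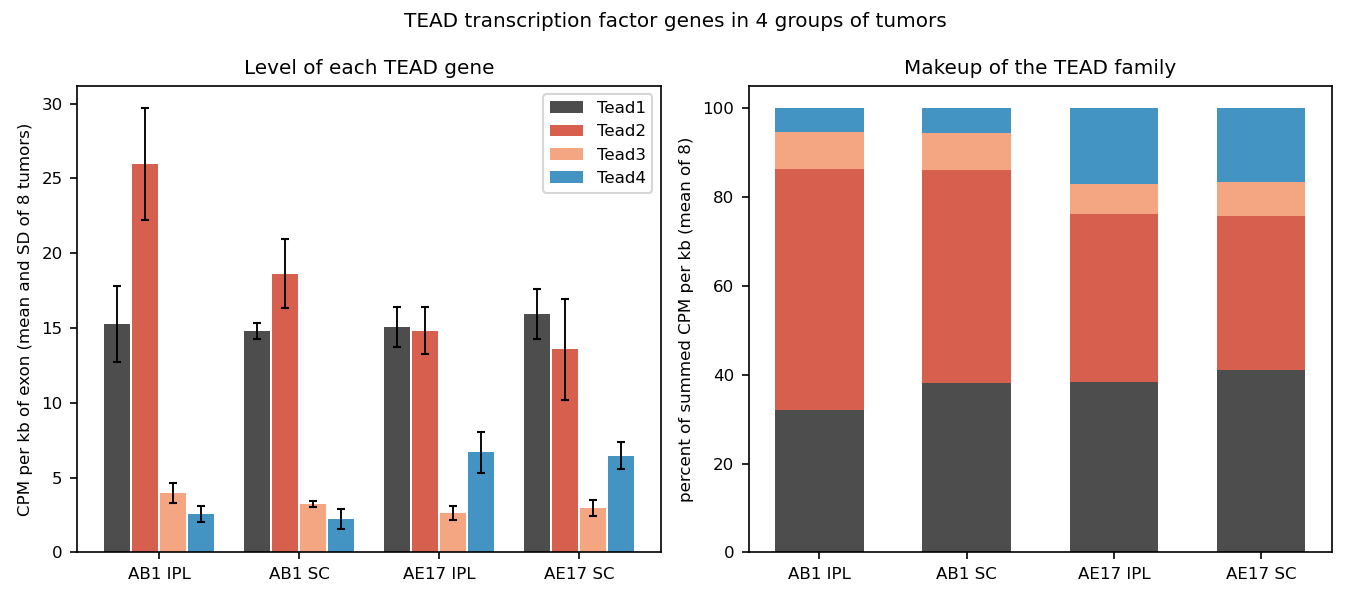
Left, level of Tead1 to Tead4 in CPM per kilobase of exon by group, with bars for the mean and lines for the SD of 8 tumors. Right, the mean percent of the summed TEAD level per kb that each gene makes up, with Tead2 largest in both AB1 groups and Tead4 at 17.01% and 16.6% in the AE17 groups, above its 5.34% and 5.65% in AB1.

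The target genes did not move together between sites. Amotl2, an angiomotin family gene that YAP induces and whose product binds YAP in turn, was higher in AB1 IPL tumors, whereas Ctgf and Cyr61, secreted matricellular proteins that are the most used readouts of YAP activity, were not called. Amotl2 ran from 56.8 to 136 CPM in AB1 IPL (median 81.9) and from 34.6 to 70.7 CPM in AB1 SC tumors (median 56.2). Of the 8 IPL tumors, 7 lay above every SC tumor. The difference was 1.52-fold (95% interval 1.21 to 1.92, log2 fold change 0.60 ± 0.16, adjusted p = 0.0102), the largest fold among the members in this comparison. Amotl2 was not called with lane or tissue marker covariates.

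Ctgf ran from 48.5 to 89.9 CPM in AB1 IPL (median 59.1) and from 39.9 to 74.8 CPM in AB1 SC tumors (median 63.1). All but 1 of the IPL values lay inside the SC range, and the ratio was 1.01 (95% interval 0.827 to 1.23, adjusted p = 0.952). Cyr61 ran from 56.55 to 138 CPM in AB1 IPL (median 74.8) and from 68.7 to 112 CPM in AB1 SC tumors (median 77.5). The IPL values spread past the SC values on both sides, with 2 above and 3 below all of them, and the ratio was 1.00 (95% interval 0.769 to 1.31, adjusted p = 0.988).

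In AE17 tumors no target was called between sites, and Ctgf came nearest. It ran from 9.71 to 45.3 CPM in AE17 IPL (median 29.1) and from 11.7 to 23.4 CPM in AE17 SC tumors (median 19.8). Of the 8 IPL tumors, 5 lay above every SC tumor and 1 below, and the ratio was 1.56 (95% interval 1.07 to 2.27) with an unadjusted p of 0.0235 and an adjusted p of 0.133 by edgeR. The AE17 site effect on Ctgf was not shown to differ from that in AB1 (log2 difference 0.61 ± 0.30, adjusted p = 0.151, and 0.0377 without AE17 IPL replicate 1). Leaving out AE17 IPL replicate 1 brought Ctgf past the threshold (log2 fold change 0.77, adjusted p = 0.0483), whereas with tissue markers as covariates its log2 fold change was 0.09 (adjusted p = 0.945). Amotl2 ran from 67.75 to 151 CPM in AE17 IPL (median 88.5) and from 61.5 to 105.3 CPM in AE17 SC tumors (median 77.65), with 1 IPL tumor, replicate 5, above the SC range (ratio 1.18, 95% interval 0.952 to 1.47, adjusted p = 0.322). Cyr61 ran from 83.25 to 101 CPM in AE17 IPL (median 90.6), inside the SC range of 42.6 to 113 CPM (median 85.0), at a ratio of 1.08 (95% interval 0.876 to 1.32, adjusted p = 0.678).

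Between the models, Ctgf ran opposite to the coactivators. It stood at 0.470 of its AB1 level in AE17 IPL tumors (95% interval 0.349 to 0.634, adjusted p = 4.23e-05) and at 0.309 in AE17 SC tumors (95% interval 0.228 to 0.419, adjusted p = 4.61e-08). All 8 AE17 tumors lay below all 8 AB1 tumors at each site. Cyr61 was called at neither site, with ratios of 1.06 (95% interval 0.830 to 1.34, adjusted p = 0.711) and 0.996 (95% interval 0.783 to 1.27, adjusted p = 0.977). Amotl2 was 1.41-fold higher in AE17 than in AB1 SC tumors (95% interval 1.12 to 1.76, adjusted p = 0.00846), with 5 of 8 tumors above all AB1 SC tumors, a call lost with lane as a covariate (log2 fold change 0.62, adjusted p = 0.111), and was not called in IPL tumors (ratio 1.08, 95% interval 0.865 to 1.35, adjusted p = 0.549).

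**Figure D3:**
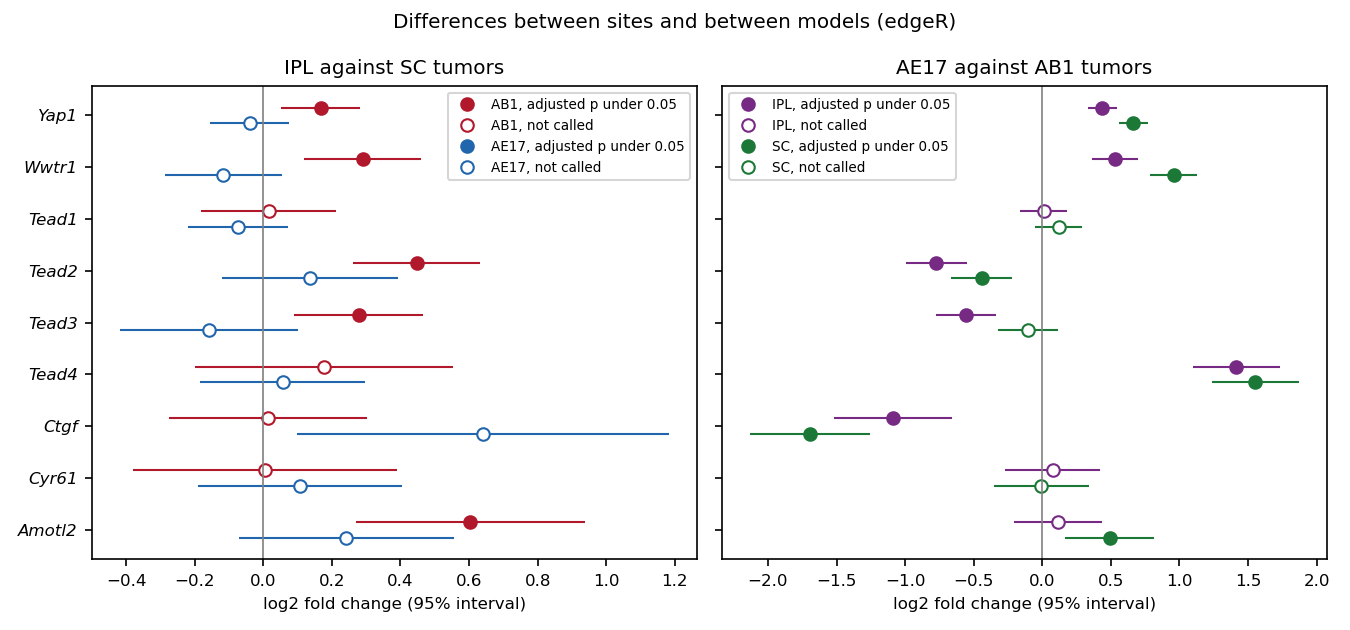
Log2 fold changes of the 9 members with 95% intervals by edgeR, for IPL against SC in each model and for AE17 against AB1 at each site; filled points passed an adjusted p of 0.05. In AB1 the passing members are Yap1, Wwtr1, Tead2, Tead3 and Amotl2, all above 0, none pass in AE17, and between models Tead4 and Ctgf have the largest changes in opposite directions.

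Counted over the members, 5 of 9 were called higher and 0 lower in AB1 IPL tumors, where 12.3% of the 14645 genes tested were called higher and 10.7% lower. The members' median log2 fold change was 0.18, beside -0.00225 for all genes tested. For 0 of the 9 did the AB1 groups not overlap, beside 5.00% of all genes tested. In AE17, 0 of 9 were called by edgeR, 0 by DESeq2 and 1 by limma voom with sample weights (Tead2, log2 fold change 0.27, adjusted p = 0.0303), and 1 had an unadjusted p under 0.05 by edgeR. Of the 14668 genes tested in AE17 by edgeR, 5.73% were called (2.60% higher and 3.13% lower) and 3696 had an unadjusted p under 0.05. DESeq2 called 1774 of 17967 genes and limma voom 3959 of 14668. Of the 9 members, 3 differed in site effect between models, all with a lower value in AE17, beside 20.5% of 15681 genes, with 11.9% of the genes at a lower and 8.62% at a higher value. In IPL tumors 3 members were higher and 3 lower in AE17 than in AB1, beside 31.8% and 31.6% of genes tested. In SC tumors 4 were higher and 2 lower, beside 29.7% and 28.6%.

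The AB1 calls depended on how lanes and tissue content entered the fit. With lane as a covariate none of the 5 passed, although each kept its direction: the log2 fold changes were 0.12 for Yap1, 0.30 for Wwtr1, 0.41 for Tead2, 0.30 for Tead3 and 0.71 for Amotl2, with adjusted p between 0.162 and 0.557. Over all genes the calls fell from 3374 to 386 under the same change. Within lane 3 alone, 8 IPL against 2 SC tumors, the values were 0.08, 0.26, 0.36, 0.25 and 0.66 in the same order, and none passed. When scores of fat, lung epithelium and both kinds of striated muscle entered as covariates, they were 0.13, 0.30, 0.39, 0.09 and 0.51, and none passed. Of the 5, the value for Tead3 moved most in the tissue fit. The parts of fibroblast, smooth muscle, endothelial and leukocyte content in these differences were not tested.

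One AB1 IPL tumor, replicate 4, stood out among the members. It had the group's highest Yap1 (132 CPM), Tead2 (163 CPM), Tead3 (36.8 CPM), Tead4 (11.6 CPM), Ctgf (89.9 CPM), Cyr61 (138 CPM) and Amotl2 (136 CPM), and its lowest Tead1 (143.5 CPM) and Wwtr1 (97.2 CPM). Other genes were extreme in this tumor too. Taok1 (28.57 CPM, group median 113.5), Stk3 (35.25, median 119.6), Mob1b (16.62, median 55.5) and Ptprc (36.82, median 128.5) were the group's lowest. Nf2 (200.8 CPM) and Limd1 (135.9 CPM) were its highest. The cause, RNA quality included, was not tested. Without it Yap1 and Tead3 no longer passed, with log2 fold changes of 0.12 (adjusted p = 0.0765) and 0.18 (adjusted p = 0.0627). Wwtr1, Tead2 and Amotl2 still passed, at 0.32 (adjusted p = 0.0018), 0.36 (adjusted p = 0.00141) and 0.46 (adjusted p = 0.0213), and they passed whichever of the 16 AB1 tumors was left out. Yap1 was near the threshold and was lost in 8 of the 16 leave-outs, those of IPL replicates 4, 6 and 7 and SC replicates 2, 4, 5, 7 and 8, with a highest adjusted p of 0.0765. Tead3 was lost in 5, those of IPL replicate 4 and SC replicates 2, 4, 5 and 7, with a highest adjusted p of 0.0657.

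**Figure D4:**
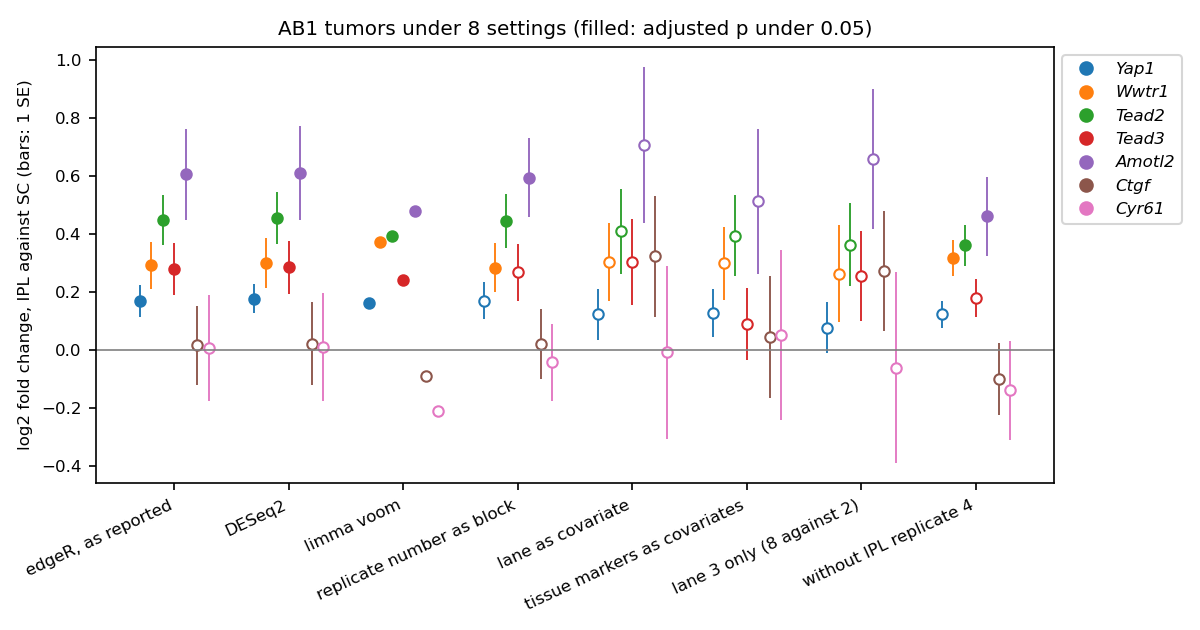
Log2 fold change of 7 members between AB1 IPL and SC tumors under 8 settings, as reported by edgeR and with other tools, covariates or tumors; lines are 1 SE (not given for limma voom) and filled points passed an adjusted p of 0.05. Yap1, Wwtr1, Tead2, Tead3 and Amotl2 stay above 0 in each setting shown, all are open in the lane, lane 3 and tissue marker fits, and Yap1 and Tead3 are also open with the replicate number as a block and without IPL replicate 4.

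Promoter sequences of members are shown because YAP and TAZ reach DNA through TEAD proteins, whose core motif is CATTCC. The motif was searched on both strands in the 250 bases before each RefSeq start on GRCm38.p6. It stood in 8 of the 10 promoters listed for 7 member genes, Ankrd1 included, beside 12.6% of all 32851 promoters. In the other pathway lists it stood in 3 of 14 promoters of the further genes of the conserved YAP target signature, 2 of 9 of the kinase cassette, 5 of 12 of the upstream regulators and 3 of 4 of the TEAD cofactors. Promoters of Ctgf, Tead1 and Tead4 are not analysed here, alternative promoters of 1 gene can overlap, and a match of 6 letters is a description and not a site of binding. The Tead2 promoter and 1 of the 3 Tead3 promoters held no match, and the 2 Wwtr1 promoters share the same match. The AP-1 core TGANTCA, searched the same way, stood in 0 of the 10 and in 6.7% of all promoters. Windows of 30 bases around 1 match in each of 5 genes are given 5′ to 3′ on the strand of the gene, with the motif or its reverse complement GGAATG in capitals. They come from chr9:8004720-8004749 (minus strand) for Yap1, chr3:57576029-57576058 (minus) for Wwtr1, chr17:28350970-28350999 (minus) for Tead3, chr3:145650071-145650100 (minus) for Cyr61 and chr9:102717727-102717756 (plus) for Amotl2.
Yap1: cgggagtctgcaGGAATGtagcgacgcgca
Wwtr1: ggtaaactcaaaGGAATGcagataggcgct
Tead3: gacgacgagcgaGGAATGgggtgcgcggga
Cyr61: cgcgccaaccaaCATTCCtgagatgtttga
Amotl2: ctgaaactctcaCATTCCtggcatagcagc
The match in Cyr61, which was not called between sites, ends 98 bases before the start, and that in Amotl2, which was called in AB1, ends 60 bases before it. The match stood both in members that rose in AB1 IPL tumors and in one that did not pass, and Tead2, which rose, had none.

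The other genes of the pathway were taken from 4 lists. Of the 8 kinase cassette genes tested in AB1, where 12.3% of all genes were called higher and 10.7% lower, 2 were higher in IPL tumors, Lats2 (log2 fold change 0.26), a kinase of YAP and itself a YAP target, and Map4k4 (0.16), a kinase upstream of LATS. The MST1 gene Stk4 (-0.24, adjusted p = 0.00189) and Mob1a (-0.24), which encodes a LATS coactivator, were lower. In AE17, 0 of 8 were called, beside 5.73% of all genes, and Stk4 differed in site effect between models (log2 difference 0.24, adjusted p = 0.0401).

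Of the 11 upstream regulators, 4 were higher and 1 lower in AB1 IPL tumors, beside 12.3% and 10.7% of all genes, and 2 were higher and 0 lower in AE17 IPL tumors, beside 2.60% and 3.13%. Amotl1, an angiomotin family gene like Amotl2, was called in both models. It ran from 163 to 198 CPM in AB1 IPL (median 179) and from 119 to 146 CPM in AB1 SC tumors (median 128), with all 8 IPL tumors above all SC tumors (1.34-fold, 95% interval 1.24 to 1.46, adjusted p = 9.09e-05). In AE17 it ran from 165 to 192 CPM in IPL and from 139 to 177 CPM in SC tumors (1.14-fold, adjusted p = 0.0346), and the site effect was smaller than in AB1 (log2 difference -0.25, adjusted p = 0.0113). The AE17 call of Amotl1 was near the threshold and was lost in 10 of 16 leave-outs (edgeR, adjusted p up to 0.0823). Nf2, the merlin gene, was 1.16-fold higher in AB1 IPL tumors (adjusted p = 0.0131), the atypical cadherin gene Dchs1 1.70-fold (adjusted p = 0.00205) and the phosphatase gene Ptpn14 by a log2 fold change of 0.23, whereas Wwc1, which encodes KIBRA, was lower by 0.48. For Nf2, Dchs1, Wwc1 and Limd1 the site effect differed between models, with log2 differences of -0.33, -0.79, 0.76 and -0.21. In AE17 the LIM domain gene Wtip was 1.26-fold higher in IPL tumors (adjusted p = 0.0338).

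Of 4 TEAD cofactors listed, 2 had a row, Vgll1 and Vgll4, and Vgll1 had 0 counts in every tumor. Vgll4, a cofactor that competes with YAP for TEAD binding, was the 1 tested, and was 1.23-fold higher in AB1 IPL tumors (adjusted p = 0.0235) and not called in AE17 (ratio 1.06, 95% interval 0.959 to 1.17, adjusted p = 0.466).

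Of 15 tested genes of a conserved YAP target signature, which shares Lats2 and Ptpn14 with the lists above, 6 were higher and 2 lower in AB1 IPL tumors, beside backgrounds of 12.3% and 10.7%. Tgfb2, a TGF-beta ligand, ran from 1.39 to 4.63 CPM in AB1 IPL (median 3.38, 23 to 86 counts) and from 0.484 to 0.913 CPM in AB1 SC tumors (median 0.720, 8 to 18 counts). All 8 IPL tumors lay above all SC tumors, and the difference was 4.21-fold (95% interval 2.90 to 6.10, adjusted p = 3.92e-05). Ccdc80, a matrix protein gene, was higher by 0.87 on the log2 scale and Gadd45a, a stress response gene, by 0.64. The receptor kinase gene Axl ran lower, from 466.0 to 659 CPM in AB1 IPL against 654 to 756 CPM in AB1 SC tumors (ratio 0.766, 95% interval 0.689 to 0.852, adjusted p = 0.00113), and Nt5e, the CD73 gene, was lower by 0.73 on the log2 scale. Arhgef17, outside the 6 largest changes of the list and named to complete the count, was higher by 0.26.

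In AE17, 1 signature gene was higher in IPL tumors and 1 lower of 15, beside 2.60% and 3.13% of all genes. Gadd45a ran from 8.13 to 13.1 CPM in AE17 IPL (median 10.8) and from 6.19 to 8.85 CPM in AE17 SC tumors (median 7.73), at 1.40-fold (95% interval 1.2 to 1.64, adjusted p = 0.0193), and was thus called higher in both models. Asap1, an Arf GTPase-activating protein gene, was lower (ratio 0.762, adjusted p = 0.0393). The site effect differed between models for 6 of the 15 signature genes, beside 20.5% of all genes, with log2 differences of -2.45 for Tgfb2, 1.25 for Igfbp3, -1.07 for Foxf2, -1.02 for Ccdc80, 0.51 for Axl and -0.40 for Asap1.

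As with the members, most pathway calls did not hold in the stricter fits. Of 16 pathway genes called in AB1, those that passed with lane as a covariate were Amotl1, Gadd45a and Tgfb2, those with tissue marker covariates were Amotl1 and Tgfb2, and within lane 3 Gadd45a passed. Over all genes these 3 fits called 386, 548 and 169 in AB1, beside 3374 as reported. None of the 4 genes called in AE17 passed by edgeR with lane or tissue marker covariates or within lane 1. Those fits called 1, 0 and 14 genes over all tested, so that hardly any gene could pass. Leaving out single tumors also ended calls: in AB1 that of Vgll4 without IPL replicate 4 (adjusted p = 0.0595) and those of Wwc1, Mob1a and Nt5e in 13, 12 and 12 of 16 leave-outs, and in AE17 those of Amotl1, Wtip and Asap1 in 10, 11 and 12 of 16. Calls of Map4k4, Ptpn14, Ccdc80 and Arhgef17 in AB1 were lost in 4 to 7 of 16, with adjusted p up to 0.0854. The other 8 genes called in AB1 (Stk4, Lats2, Nf2, Dchs1, Amotl1, Axl, Gadd45a and Tgfb2) and Gadd45a in AE17 passed in all 16.

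**Figure D5:**
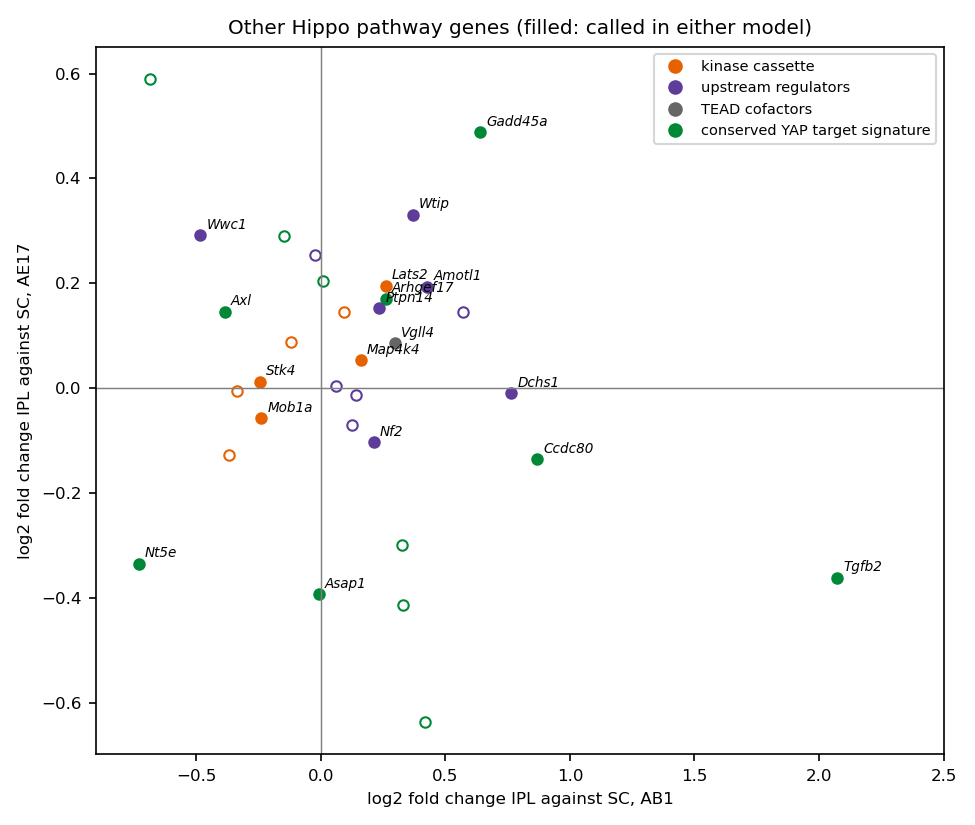
Log2 fold changes of IPL against SC tumors by edgeR in AB1 (horizontal axis) and AE17 (vertical axis) for the genes of the 4 pathway lists tested in both models; filled points with names were called in either model. Amotl1 and Gadd45a were called higher in both, and Tgfb2 has the largest AB1 change and was not called in AE17.

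Within groups, the correlations between the 3 targets varied in sign. Over the 3 pairs and 4 groups, 12 relations in all, Pearson's r of log2 CPM ran from -0.563 to 0.783, and no Pearson p passed after Benjamini-Hochberg adjustment. The highest was between Cyr61 and Amotl2 in AE17 SC tumors (r = 0.783, exact permutation p = 0.0192, adjusted p = 0.162, and Spearman's rho = 0.929, exact permutation p = 0.00223, adjusted p = 0.0268, n = 8). Without the 2 tumors farthest from the median of Cyr61, r was 0.656 (exact permutation p = 0.167). In AB1 IPL tumors all 3 pairs were positive, at 0.453 for Ctgf and Cyr61, 0.738 for Ctgf and Amotl2 (exact permutation p = 0.0469, adjusted p = 0.188) and 0.733 for Cyr61 and Amotl2 (exact permutation p = 0.0269, adjusted p = 0.162). Without the 2 farthest tumors these were -0.0281, 0.55 and 0.132. In AB1 SC tumors Cyr61 and Amotl2 had an r of -0.559, and in AE17 IPL tumors Ctgf and Cyr61 had -0.563.

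After the 4 group means were removed, the genes with the pattern most like Yap1, Wwtr1, Ctgf, Cyr61 and Amotl2 over the 32 tumors were sought among 11577 genes, as a description. For Wwtr1 they were Ppfibp1 (r = 0.874), Apbb2 (0.87) and Fubp3 (0.853), and for Yap1 they were Pja1 (0.825), Rcor2 (0.805) and Acap3 (0.796). The targets had less close neighbors. Ctgf was most like Irs2 (0.681), Dsg2 (0.661) and Vtn (0.634), Cyr61 most like Akirin2 (0.695), Bcl10 (0.66) and Cntnap4 (0.644), and Amotl2 most like Cnn2 (0.723), Pik3c2b (0.67) and Sbk1 (0.669). These are Pearson's r. Spearman's rho for the same pairs ran from 0.42 for Ctgf and Vtn to 0.875 for Wwtr1 and Apbb2, and was 0.597 for Yap1 and Rcor2. All points share libraries, lanes and tissue content.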

How the data were processed

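Polyadenylated RNA of 32 whole tumors was sequenced as 50 bp single-end reads. The authors demultiplexed with bcl2fastq (1.8.4), aligned with HISAT2 (2.0.4) to the mouse genome and counted reads per gene with SummarizeOverlaps. The deposited values are raw counts per gene. Use of strand in counting is not given in the sources used here, so reads from overlapping and antisense genes may be shared. Where IPL tumors were taken, lungs and surrounding tissue had been removed.

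From the counts, edgeR (4.0.16, R 4.3.3) quasi-likelihood tests were run after filterByExpr and TMM scaling, on all 39676 genes before filtering, with Benjamini-Hochberg adjustment over all genes tested and a threshold of 0.05. Site was tested within each model (16 tumors), and the interaction and the differences between models in 1 fit of 32 tumors. CPM and log2 CPM use TMM library sizes, with a prior count of 2 on the log scale. Lengths came from GENCODE M21 on GRCm38, by gene identifier, and promoters from RefSeq (GRCm38.p6). Exact permutation and sign-flip tests are two-sided (scipy 1.17.1). Alternatives were DESeq2 (1.42.0), limma voom (3.58.1), other scalings and filters, lane, tissue marker and replicate covariates, and leaving out each tumor. The tests were checked on simulated data of 14645 genes for the AB1 comparison, where edgeR recovered 86% of genes changed by 1 and 98% of those changed by 2 on the log2 scale, with 10 false calls. No smaller changes and no lane or tissue differences were simulated, whereas the members called in AB1 changed by 0.17 to 0.60. Recovery at those sizes was not tested.

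The members and lists were chosen with earlier results of these data known. Genes named besides the members were those called between sites or in the interaction, at most the 6 largest per list and comparison, and the 3 most like each of 5 members among genes averaging 1 CPM or more. Each tumor is 1 mouse. Depth ran from 15432258 to 20649645 counts per tumor, and members with a row had at least 83 counts in each. Expression of Ankrd1 and comparisons of protein sequences are not analysed here.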

Additional observations from a re-analysis of the deposited data

Results flagged for a closer look

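Of 36 sets of 8 values (9 members in 4 groups), 3 held a tumor that stood apart from the other 7 by Dixon's test, in which the gap to the nearest tumor is divided by the whole range on the log2 scale. Chance alone marks about 5% of such sets. Tead4 in AE17 SC replicate 8, at 30.6 CPM, was the highest of its group (0.58). Cyr61 in AE17 SC replicate 6, at 42.6 CPM, was the lowest (0.584), and this tumor also had the group's highest sums of skeletal muscle (1522 CPM), fibroblast (11530 CPM), smooth muscle and pericyte (419 CPM) and keratinocyte markers (24.3 CPM). Amotl2 in AE17 IPL replicate 5, at 151 CPM, was the highest (0.579), and this tumor had the group's highest sums of adipocyte (314 CPM), cardiac muscle (205 CPM), skeletal muscle (942 CPM), fibroblast (12940 CPM), smooth muscle and pericyte (462 CPM), endothelial (286 CPM) and leukocyte markers (860 CPM). The part of these tissues in either value was not tested.

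For 15 genes the effect of site differed between the models by the interaction test of edgeR (adjusted p between 2.89e-05 and 0.0466). Tested were 9 members, 8 kinase cassette genes, 11 upstream regulators, 1 TEAD cofactor and 15 signature genes. Over all genes, 20.5% of 15681 were called in this test. Among the members, the site effect in AE17 minus that in AB1 on the log2 scale was -0.225 for Yap1, -0.425 for Wwtr1 and -0.455 for Tead3. Among upstream genes it was 0.237 for Stk4, -0.334 for Nf2, 0.757 for Wwc1, -0.791 for Dchs1, -0.252 for Amotl1 and -0.214 for Limd1. In the target signature it was -0.402 for Asap1, 0.512 for Axl, 1.25 for Igfbp3, -1.07 for Foxf2, -1.02 for Ccdc80 and -2.45 for Tgfb2. With 1 of the 32 tumors left out, the calls of Limd1 and Stk4 were lost in 21 and 14 of 32 cases, Asap1 in 5, Tead3 and Igfbp3 in 3, Ccdc80 in 2 and Yap1 in 1. In both models lane and site overlap in part, and no member kept its interaction call with lane as a covariate.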

How the results depend on the processing

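Of the 5 members called in AB1, 0 remained with lane as a covariate, 0 with tissue marker covariates and 0 within lane 3, and 3 to 5 remained when 1 tumor was left out. The 16 AB1 pathway calls fell to 3, 2 and 1 under the same 3 fits (10 to 19 with 1 tumor left out), and the 3374 calls over all genes to 386, 548 and 169. In AE17, the 0 member calls became 1 with limma voom (0 to 1 with 1 tumor left out), the 4 pathway calls 17 with limma voom, 2 without a filter and 0 with lane, tissue or within-lane fits (1 to 7 with 1 tumor left out), and the 840 calls over all genes 1774 with DESeq2, 3959 with limma voom, 550 without a filter, 1324 in the fit of all 32 tumors, 14 within lane 1, 1 with lane and 0 with tissue markers as covariates (edgeR, with 1316 genes at an unadjusted p under 0.05), and 316 to 2066 with 1 tumor left out. For the interaction, the 3 member calls became 0 with lane and 1 with tissue markers (1 to 4 with 1 tumor left out), the 12 pathway calls 2 and 3, and the 3212 calls over all genes 117 and 1064. With lane as a covariate the calls between models fell from 9940 to 5008 in IPL and from 9138 to 5268 in SC tumors. The cause of these losses was not tested.

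Replicate numbers did not pair the tumors. The correlation of deviations between same-numbered IPL and SC tumors averaged -0.12 in AB1 and 0.072 in AE17, and 0 of 8 and 3 of 8 pairs correlated best with their own number. With the replicate block, 3 members (Wwtr1, Tead2 and Amotl2) and 8 pathway genes remained called in AB1, and Tead1 and Cyr61 turned to -0.00345 and -0.0434 on the log2 scale.

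Small differences changed sign. In AB1 the log2 fold change of Tead1 was -0.069 with tissue markers and -0.0175 within lane 3, that of Ctgf -0.0922 with limma voom, and that of Cyr61 -0.211 with limma voom, -0.00388 with at least 10 counts in every tumor, -0.00963 with lane and -0.0623 within lane 3. In AE17 with tissue markers it was 0.00285 for Yap1, -0.021 for Tead2 and -0.0815 for Cyr61, and the interaction of Cyr61 was -0.0523. Between models, Tead1 in IPL tumors was -0.0819 with limma voom, -0.0542 with total counts and -0.0211 without a filter, and Cyr61 in SC tumors 0.0442 with limma voom, 0.00144 with at least 10 counts, 0.104 with lane and 0.064 with tissue markers. With 1 tumor left out, Tead1 in AB1 ran from -0.021 to 0.0726, Ctgf from -0.102 to 0.0636 and Cyr61 from -0.14 to 0.0807, Tead4 in AE17 from -0.0281 to 0.114, the interaction of Cyr61 from -0.0181 to 0.197, and between models Tead1 in IPL from -0.0568 to 0.0392, Cyr61 in IPL from -0.0131 to 0.19, Amotl2 in IPL from -0.0258 to 0.226 and Cyr61 in SC from -0.0866 to 0.0948. None of these was called as reported. Without the 2 farthest tumors, r of Ctgf and Cyr61 was -0.0281, -0.105 and -0.358 in AB1 IPL, AB1 SC and AE17 SC tumors, and r of Cyr61 and Amotl2 0.527 in AB1 SC tumors. With total counts r of Ctgf and Amotl2 in AE17 SC tumors was 0.00223, and with the longest transcript the log2 ratio of Tead1 to Tead2 in AE17 IPL tumors was -0.0261. Correlations of Ankrd1 with muscle markers were not run. For single genes, 620 of the values under other settings kept their direction and side of the threshold, and 123 kept their direction but no longer passed.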

Other observations

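Several genes named above from the pathway lists also differed widely between the models, where 63.4% of genes tested were called in IPL and 58.3% in SC tumors. Wtip, a LIM domain gene, stood at 29.9 ± 2.60 CPM in AE17 IPL and 3.42 ± 1.31 CPM in AB1 IPL tumors (SD, n = 8 each), an 8.94-fold difference (95% interval 7.03 to 11.4, adjusted p = 1.48e-16 by edgeR). Ptpn14 was 3.44-fold higher in AE17 IPL tumors (adjusted p = 5.23e-18) and Wwc1 6.48-fold (adjusted p = 2.66e-16). Tgfb2 reached 33.2 ± 6.26 CPM in AE17 IPL and 43.0 ± 17.4 CPM in AE17 SC tumors, beside 3.04 ± 1.18 and 0.704 ± 0.171 CPM in AB1. Nf2 was lower in AE17, at 0.625 of its AB1 level in IPL (adjusted p = 5.85e-12) and 0.787 in SC tumors (adjusted p = 4.34e-06), and Asap1 was lower at 0.319 and 0.421. The 8 AE17 tumors did not overlap with the 8 AB1 tumors of the same site for Wtip, Ptpn14, Wwc1, Tgfb2 and Asap1, where 28.1% of genes tested in IPL and 30.8% in SC tumors did not overlap.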
